A study of Mus musculus with 15 samples.

Results

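The mitochondrial ribosomal proteins were taken as every gene whose symbol starts with Mrpl or Mrps followed by a digit, with pseudogenes named -ps left out. This gave 78 genes of the 13172 gene IDs listed in any table, 49 named for the large subunit and 29 for the small. All 78 were listed in all 15 libraries, so none was lost to the filter on low counts, and all were among the 12721 genes tested. Left out were 3 pseudogene symbols, Mrpl23-ps1, Mrps36-ps1 and Mrps36-ps2, and read sharing with such copies leaves the levels of Mrpl23 and Mrps36 uncertain. RNA-seq counts came from B16.F10, an established mouse melanoma line whose genotype is labelled WT, kept in 1% oxygen in every group. Each of the 5 groups had 3 libraries. Control cells had no treatment, NC_siRNA cells received a negative control siRNA and Hif1a_siRNA cells an siRNA against Hif1a, each as a lipoplex at 25 nM. Dox cells received doxorubicin hydrochloride at 0.25 µM for 24 h, and their labels name no siRNA. Hif1a_siRNA_Dox cells received the Hif1a siRNA and, 24 h later, the same dose of doxorubicin for 24 h. For the siRNA groups without the drug, the sources used here do not give the interval between transfection and harvest. The labels speak of biological replicates without saying whether these were separate cultures, so p-values measure only the spread between these samples, which may be technical.

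The mitochondrial ribosome sits in the mitochondrial matrix and makes the respiratory chain and ATP synthase subunits that mitochondrial DNA encodes. Its rRNAs, mt-Rnr1 and mt-Rnr2, come from mitochondrial DNA, whereas all its proteins are encoded in the nucleus, made in the cytosol and imported. Some of these proteins descend from bacterial ribosomal proteins and others were added during mitochondrial evolution, so the particle holds more protein and less rRNA than its bacterial relative. Doxorubicin intercalates in DNA and traps topoisomerase II, and the product of Hif1a is the subunit of HIF-1, a transcription factor, whose stability depends on oxygen.

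Promoters of nuclear genes for mitochondria are known for binding sites of NRF1 and of the ETS factor GABP. Windows from 250 bases before to 50 after the start were matched for 69 of the 78 members in RefSeq's GRCm38.p6 table, all but Mrpl4, Mrpl13, Mrpl15, Mrpl19, Mrpl38, Mrpl54, Mrps28, Mrps34 and Mrps35. The letters GCGCATGC, the core of an NRF1 site, were found on either strand in 8 of the 69 windows (11.6%) and in 3.61% of 17492 windows of protein-coding genes. The letters CCGGAAG, an ETS core, were in 24 (34.8%, against 11.9%) and AAGATGGC, a YY1 core, in 12 (17.4%, against 3.21%). The letters ACGTG, the core to which HIF-1 binds, which also lie inside the E-box CACGTG, were in 15 windows (21.7%, against 20.7%). CACGTG was in 5 (7.25%, against 7.91%) and GGGCGG, an Sp1 box, in 34 (49.3%, against 46.3%). These are matches of letters and not measured binding. Shown here are 60-base stretches upstream of the start for 3 members that the comparisons turn on, and for the stalk gene Mrpl10, chosen because its stretch holds the NRF1 letters. All are 5′ to 3′ on the gene's strand, and capitals mark the NRF1 or ETS letters, on either strand. The stretches lie outside every exon of the GENCODE annotation and outside the gene's own RefSeq record. Mrpl10 is at chr11:97041422-97041481 (plus strand), Mrpl34 at chr8:71464862-71464921 (plus), Mrps22 at chr9:98601680-98601739 (minus) and Mrpl17 at chr7:105811278-105811337 (minus).
Mrpl10: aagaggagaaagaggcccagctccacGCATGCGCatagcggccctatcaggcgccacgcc
Mrpl34: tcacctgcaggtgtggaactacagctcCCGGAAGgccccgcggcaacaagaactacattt
Mrps22: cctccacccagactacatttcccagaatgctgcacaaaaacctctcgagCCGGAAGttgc
Mrpl17: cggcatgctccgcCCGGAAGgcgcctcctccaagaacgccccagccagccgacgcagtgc

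Library totals ran from 23825110 to 28734303 counted reads, and a member had between 83 (Mrps16) and 4846 (Mrpl13) reads in a library. Levels are in CPM, counts scaled to a library total that TMM (trimmed mean of M-values) had corrected, and in bulk samples fewer cells of a kind and less RNA per cell cannot be told apart. Hif1a, the target of the siRNA, was at 204, 231 and 216 CPM in Control, 289, 268 and 264 in NC_siRNA, 16.7, 15.9 and 18.9 in Hif1a_siRNA, 138, 137 and 153 in Dox and 13.5, 11.6 and 14.2 in Hif1a_siRNA_Dox, so all 6 libraries given its siRNA were below the other 9. All 7 melanocyte markers looked at had reads, and none of 4 leukocyte, 3 endothelial and 3 keratinocyte markers was among the listed genes. The summed melanocyte markers were at 8288 to 14550 CPM in the 9 libraries without doxorubicin and 29680 to 46320 CPM in the 6 with it. This sum does not speak for each marker. At an edgeR adjusted p under 0.05, 5 of the 7 were higher and 2 lower in Dox than in Control. In Hif1a_siRNA_Dox against Hif1a_siRNA 4 were higher and 3 lower. The shares over all tested genes were 43.9% and 39.8% in the former and 42.6% and 41.6% in the latter. Of 4 fibroblast markers, Col1a1 and Pdgfra were listed and Col1a2 and Dcn were not. The summed level of these was 2.49 to 6.62 CPM without and 37.2 to 85.8 CPM with the drug. The part of either in the results with doxorubicin was not tested.

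Summed over the 78 genes, the level was 3818, 3549 and 3568 CPM in Control, 2562, 2513 and 2633 in NC_siRNA, 2882, 2816 and 2794 in Hif1a_siRNA, 2918, 2869 and 3080 in Dox, and 2530, 2722 and 2574 in Hif1a_siRNA_Dox. Every Control library was above the 12 treated ones. Summed levels of the 49 large subunit genes divided by those of the 29 small subunit genes gave 2.33 ± 0.03 (SD, n = 3) in Control and 2.29 ± 0.05 in NC_siRNA. The ratio was 2.09 ± 0.03 in Hif1a_siRNA, 2.05 ± 0.03 in Dox and 1.99 ± 0.04 in Hif1a_siRNA_Dox. These sums are a description and were not tested. Genes with high levels weigh most in them. Mrpl45 had means of 139.5 CPM in NC_siRNA and 60.06 in Hif1a_siRNA, and Mrpl18 59.49 and 19.32. Between these groups 24 large subunit genes were called higher and 10 lower. Subunits go by symbol, so the small subunit sum holds Mrps18a and Mrps30, found in the large subunit, and Mrps36. The libraries came from an mRNA kit, so rRNA reads may reflect capture as well as amount. The summed level of mitochondrial rRNA reads followed a course other than that of the members. It went from 600.1 to 611.9 CPM in Control to between 6864 and 7663 CPM in Dox. In Hif1a_siRNA_Dox it was 6229, 5834 and 8589 CPM, the third library standing above the other two.

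**Figure D1:**
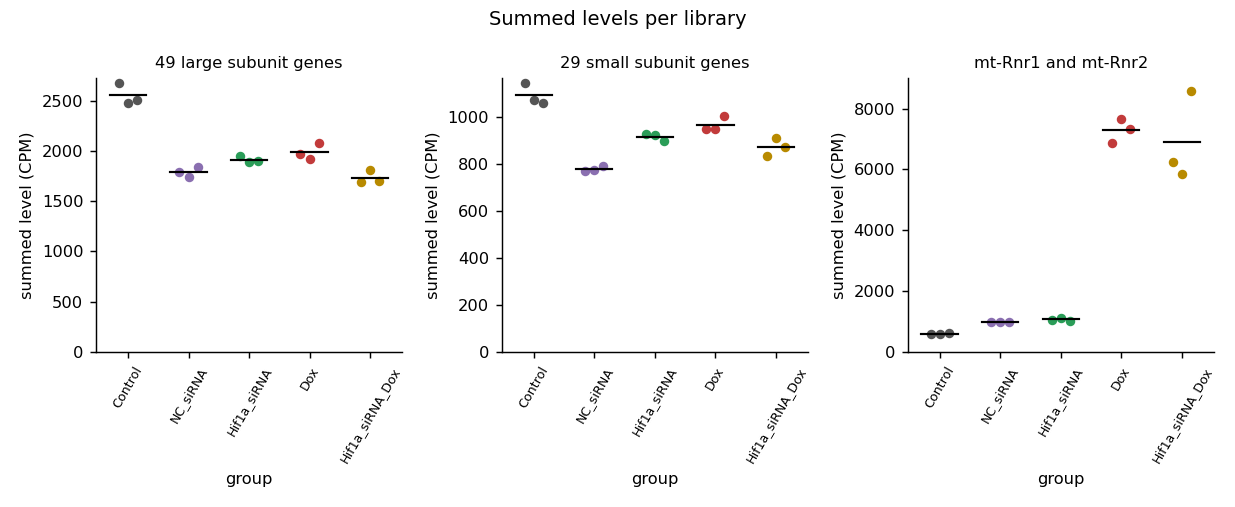
Summed level in CPM (vertical axes, from 0) of the 49 large subunit genes, the 29 small subunit genes and the 2 mitochondrial rRNAs in each library (points), by group, with the group mean as a line. Both subunits are highest in Control, while reads of the rRNAs, in libraries made with an mRNA kit, are highest in the groups given doxorubicin.

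Members differed in their order of groups. Of the 78 genes, 42 had their highest group mean in Control, 19 in Dox, 14 in Hif1a_siRNA, 2 in Hif1a_siRNA_Dox and 1 in NC_siRNA. The lowest group mean was in NC_siRNA for 26, Hif1a_siRNA_Dox for 20, Dox for 18, Hif1a_siRNA for 13 and Control for 1. The coefficient of variation of a member within a group was 0.402% to 29.9%, with a median of 5.83% over members and groups. Replicates of Hif1a_siRNA_Dox lay furthest apart over all tested genes. Their chi-square per degree of freedom, a measure of how far 2 libraries differ beyond counting, was 25.0 to 34.5. Pairs in the other groups had 3.56 to 16.7. The fit estimated the spread over all groups together, so it may understate that of Hif1a_siRNA_Dox. Exon lengths merge all annotated coding transcripts of a gene, so they can exceed the length of the transcript made. Per kilobase of exon and averaged over all libraries, the highest in the large subunit were Mrpl30 (156 CPM per kilobase), Mrpl33 (144) and Mrpl13 (106). Highest in the small subunit were Mrps21 (91.8), Mrps33 (45.1) and Mrps15 (42.8). Of these 6, all but Mrps33 descend from bacterial ribosomal proteins. Mrpl30 itself was at 189, 174 and 177 CPM in Control, 122, 118 and 131 in NC_siRNA, 127, 116 and 116 in Hif1a_siRNA, 178, 168 and 193 in Dox and 146, 153 and 163 in Hif1a_siRNA_Dox. Mrpl30 fell with the negative control siRNA (−0.55 ± 0.07 SE on the log2 scale) and did not pass the test with doxorubicin (−0.00 ± 0.07).

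The first comparison, NC_siRNA against Control, shows what transfection with a negative control siRNA changed. Most members fell. Of the 78, 64 were lower, 2 higher and 12 did not pass an edgeR adjusted p under 0.05, with a median log2 fold change of −0.52. Of all tested genes 33.7% were lower and 33.1% higher, with a median of −0.01. By subunit, 40 of 49 large subunit genes were lower and 2 higher, and 24 of 29 small subunit genes were lower and none higher. Falls of at least 2-fold were few, 4 of 78 members against 6.97% of all tested genes.

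The largest falls were in members descended from bacterial ribosomal proteins, apart from Mrps22. Mrpl17 stood at 38.7, 30.99 and 33.2 CPM in Control and at 11.3, 12.8 and 13.4 CPM in NC_siRNA (−1.46 ± 0.10 SE, edgeR adjusted p = 3.3e-11). Mrpl34 was at 21.7, 16.6 and 20.3 against 8.53, 8.54 and 8.18 CPM (−1.22 ± 0.12). Mrps22, a small subunit protein with no bacterial counterpart, was at 32.03, 31.3 and 32.4 against 16.8, 13.8 and 14.1 CPM (−1.09 ± 0.12, edgeR adjusted p = 2.5e-08). In these 3 genes every NC_siRNA library was below every Control library. Mrpl13 was at 137, 122 and 126 and 61.8, 58.6 and 63.7 CPM (−1.06 ± 0.07). Mrps28 and Mrps24 fell by 0.92 and 0.90 on the log2 scale, again without overlap between the groups. Mrpl41 went the other way, from 5.34, 6.08 and 5.15 to 8.35, 7.11 and 8.93 CPM (0.56 ± 0.14, edgeR adjusted p = 0.0015). The other gene called higher, Mrpl44 (18.3, 22.5 and 20.1 against 22.4, 25.2 and 25.03 CPM, 0.26 ± 0.11), overlapped between the groups. Its edgeR adjusted p was 0.048, and the call was lost without replicate 1 or 3 of Control or replicate 2 or 3 of NC_siRNA (adjusted p 0.098 to 0.19).

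**Figure D2:**
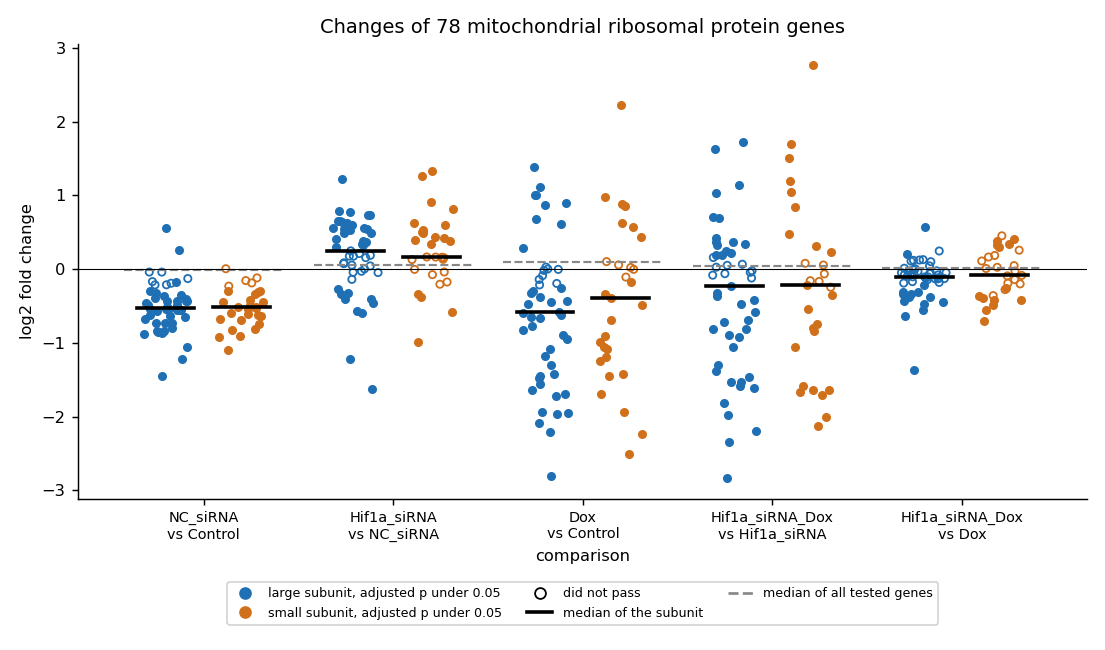
Log2 fold change (vertical axis) of each of the 78 genes in the 5 comparisons of 2 groups, with large subunit genes in blue and small subunit genes in orange; filled points passed an edgeR adjusted p under 0.05 and open points did not. Solid lines are the median of the subunit and dashed lines the median of all tested genes; the members spread from −2.83 to 2.77 with doxorubicin after the Hif1a siRNA and from −1.46 to 0.56 with the negative control siRNA.

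Hif1a_siRNA against NC_siRNA addressed the effect of losing Hif1a mRNA under low oxygen. Here 38 members were higher, 14 lower and 26 did not pass, with a median log2 fold change of 0.23. Of all tested genes 36.4% were higher and 31.2% lower, with a median of 0.06. In the large subunit 24 of 49 were higher and 10 lower, and in the small subunit 14 of 29 were higher and 4 lower. Changes of at least 2-fold were made by 3 members upward and 2 downward, against 11.5% and 10.3% of all tested genes. This comparison and the previous one both use the NC_siRNA libraries, so a low level there enters both, with opposite signs.

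Among increases, Mrps18b, 1 of 3 relatives of a single bacterial small subunit protein, had the largest. It was at 17.9, 17 and 16.9 CPM in NC_siRNA and 41.9, 44.9 and 42.99 in Hif1a_siRNA, and at 23.1, 18.4 and 19.3 in Control (1.32 ± 0.12 SE, edgeR adjusted p = 8.9e-10). Mrps2 was at 18.4, 18.03 and 18.5 CPM, 45.5, 42.2 and 43.98 CPM and, in Control, 21.4, 19.3 and 20.5 CPM (1.26 ± 0.10, edgeR adjusted p = 6.6e-11). For both genes the Hif1a_siRNA libraries were above the NC_siRNA and the Control libraries. Mrpl17 was otherwise: its 30.6, 28.3 and 28.8 CPM in Hif1a_siRNA lay above NC_siRNA (1.23 ± 0.10, edgeR adjusted p = 2.1e-10) and below all 3 Control libraries. Mrps28 (9.61, 8.68 and 7.92 against 15.6, 15.3 and 18.3 CPM, 0.91 ± 0.15) and Mrps22 (16.8, 13.8 and 14.1 against 26.9, 27.6 and 24.7 CPM, 0.82 ± 0.12) had likewise been lower in NC_siRNA than in Control. Mrpl1, whose bacterial counterpart forms the stalk beside the tRNA exit site, rose by 0.78 ± 0.10.

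Decreases went below the Control level as well. Mrpl18 was at 60.2, 59.6 and 58.7 CPM in NC_siRNA and 20.7, 17.8 and 19.4 in Hif1a_siRNA, against 82.6, 74.4 and 84.3 in Control (−1.62 ± 0.09, edgeR adjusted p = 9.6e-14). Mrpl45, which lies by the exit of the peptide tunnel and faces the inner membrane, was at 144, 137 and 138 CPM, 57.5, 61.95 and 60.7 CPM and, in Control, 210.0, 167 and 186 CPM (−1.22 ± 0.09, edgeR adjusted p = 1.2e-11). Mrps21 went from 35, 35.4 and 36.2 to 18.1, 18.7 and 16.7 CPM (−0.99 ± 0.09, edgeR adjusted p = 2.6e-09). In each of these 3 genes the Hif1a_siRNA libraries were below those of both other groups. Smaller falls were those of Mrpl33 (−0.60), Mrps34 (−0.59) and Mrpl53 (−0.57). Mrps34 shares 763 exon bases with Nme3 on the same strand, and Mrpl53 shares 695 with Gm42688, so their counts are uncertain. Mrpl18 shares 141 exon bases with Tcp1 on the other strand.

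**Figure D3:**
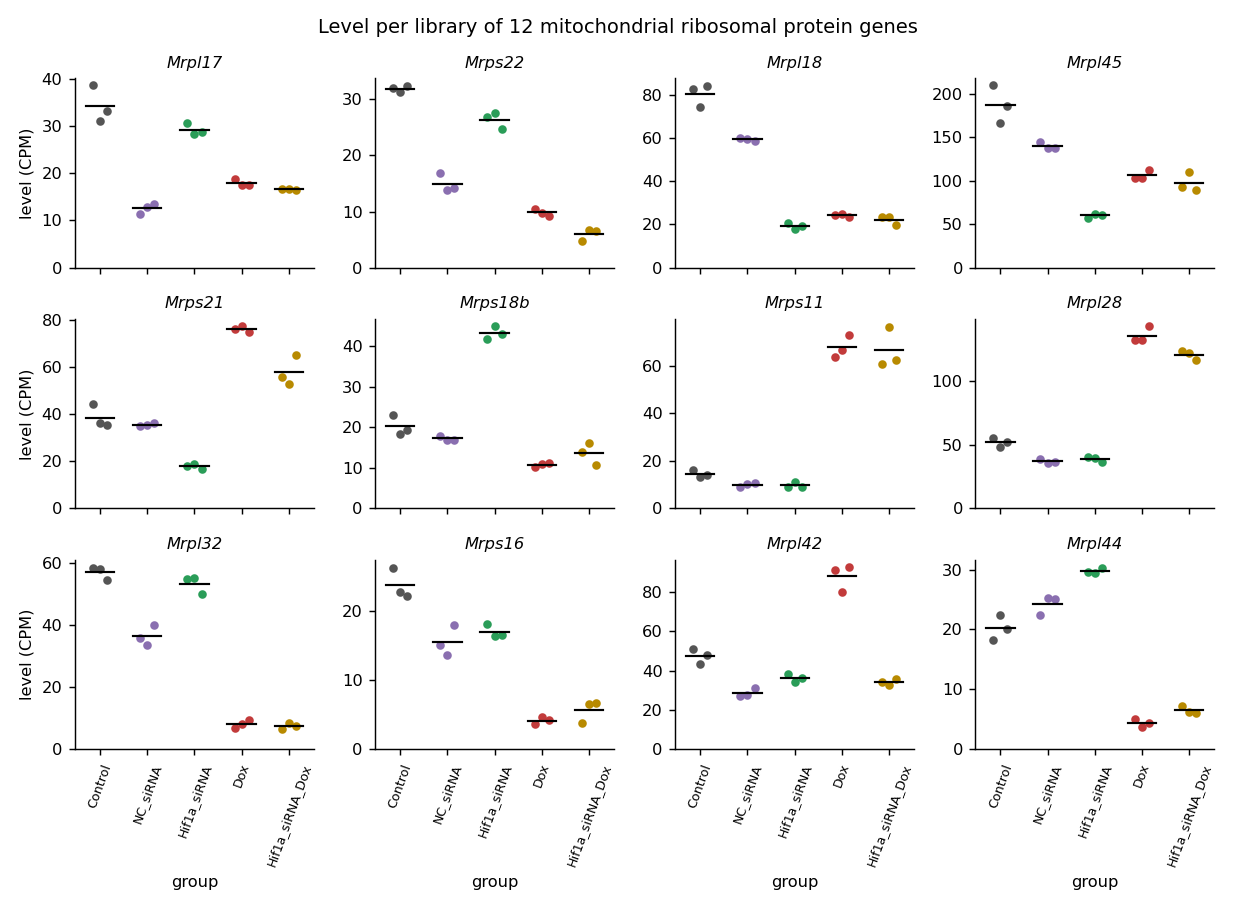
Level in CPM (vertical axes, each from 0) of 12 members in every library (points), by group, with the group mean as a line. Mrpl17 and Mrps22 are lower in NC_siRNA than in Control, and Mrps22 is lower still in both groups given doxorubicin. Mrpl18 and Mrpl45 are lowest in Hif1a_siRNA. Mrps11 and Mrpl28 are high and Mrpl32 and Mrpl44 low in both groups given doxorubicin, and Mrpl42 is high in Dox alone.

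Dox against Control addressed the effect of doxorubicin in cells given no siRNA. Doxorubicin moved the members apart: 49 were lower, 16 higher and 13 did not pass, with a median log2 fold change of −0.48. Of all tested genes 39.8% were lower and 43.9% higher, with a median of 0.10. In the large subunit 32 of 49 were lower and 9 higher, and in the small subunit 17 of 29 were lower and 7 higher. At least 2-fold lower were 26 members, with 24.5% of all tested genes called that far down, and 5 members were at least 2-fold higher (26.8% of all tested genes). Among members named for the small subunit and specific to mitochondria 8 of 11 were lower and 1 higher, with a median of −0.98. These 11 were set by symbol and include Mrps30 (−1.46), found in the large subunit. They also include Mrps36 (−0.98), known also from the oxoglutarate dehydrogenase complex, whose value is the median. Among homologues of bacterial proteins named for the small subunit 9 of 18 were lower and 6 higher (median −0.22). In the large subunit the medians were −0.53 over 30 homologues and −0.59 over 19 mitochondria-specific proteins. The difference between these classes was not tested.

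At the top stood Mrps11, a small subunit protein with a bacterial counterpart (chr7:78783131-78792988, GRCm38). It was at 16.3, 13.3 and 13.9 CPM in Control and 63.9, 66.5 and 72.9 in Dox, without overlap (2.23 ± 0.11 SE, edgeR adjusted p = 8.1e-15). Its neighbour Mrpl46 (chr7:78775341-78783089), a large subunit gene that starts 412 bases away and runs the other way, was at 12.9, 11.2 and 12.9 and 24.04, 24.7 and 25.8 CPM (1.01 ± 0.11). The pair shares 173 exon bases on opposite strands, and whether the counting used strand is not given in the sources used here, so part of either count may belong to the other gene. Mrpl28 was at 55.4, 48.3 and 52.2 CPM in Control and 132, 132 and 143 in Dox (1.39 ± 0.07, edgeR adjusted p = 2.1e-14). Mrpl41, the gene that had risen with transfection, was at 11.5, 11.7 and 12.7 CPM in Dox (1.12 ± 0.14). Mrpl37 (46.5, 43.6 and 43.6 against 85.7, 83.3 and 99.2 CPM, 1.00 ± 0.08) and Mrps21 (44.2, 36.1 and 35.4 against 76.01, 77.3 and 74.9 CPM, 0.98 ± 0.09) completed the 6 largest increases. In all 6 genes each Dox library was above each Control library.

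Falls of at least 2-fold outnumbered such rises, and the largest was that of Mrpl32. Mrpl32, a large subunit protein that a protease of the inner membrane must trim before it is built in (chr13:14610301-14613037, GRCm38), was at 58.3, 58.1 and 54.7 CPM in Control and 6.96, 8.10 and 9.36 in Dox (−2.81 ± 0.11, edgeR adjusted p = 1.2e-16). Mrps16 went from 26.2, 22.8 and 22.2 to 3.63, 4.62 and 4.21 CPM (−2.51 ± 0.17, edgeR adjusted p = 2.7e-12). Mrps35 went from 35.4, 37.3 and 37.8 to 7.75, 7.60 and 8.16 CPM (−2.23 ± 0.14). None of these 3 overlapped between the groups. Mrpl44, which carries a fold like that of RNase III, was at 5.04, 3.65 and 4.43 CPM in Dox (−2.21 ± 0.13, edgeR adjusted p = 1.1e-13). Mrpl9 was at 114, 109 and 109 and 26.6, 25.2 and 26.4 CPM (−2.09 ± 0.08), and Mrpl1 at 30.3, 25.5 and 27.04 and 7.27, 6.00 and 7.98 CPM (−1.96 ± 0.12). Mrpl44 shares 126 exon bases with Wdfy1 and Mrpl9 shares 157 with Oaz3, both on the other strand.

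Hif1a_siRNA_Dox against Hif1a_siRNA addressed the effect of the drug on top of the Hif1a siRNA. Of the 78 members 39 were lower, 24 higher and 15 did not pass, with a median log2 fold change of −0.23. Of all tested genes 41.6% were lower and 42.6% higher, with a median of 0.04. At least 2-fold changes counted 21 members lower and 9 higher, against 24.9% and 25.3% of all tested genes. Large subunit genes were lower in 25 and higher in 15 of 49, and small subunit genes lower in 14 and higher in 9 of 29. With upper-quartile scaling the members' median was −0.08, as the median of all tested genes moved up by 0.15. Time since transfection may differ between these groups, which cannot be told apart from the drug here.

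The extremes included several genes already seen. Mrps11 was at 8.89, 11.2 and 9.11 CPM in Hif1a_siRNA and 60.9, 76.2 and 62.4 in Hif1a_siRNA_Dox (2.77 ± 0.11 SE, edgeR adjusted p = 1.8e-16). Mrpl33 was at 30.3, 30.9 and 29.3 and 94.6, 102 and 102 CPM (1.72 ± 0.07), and Mrps21 at 18.1, 18.7 and 16.7 and 55.8, 53.05 and 64.98 CPM (1.70 ± 0.09). These 3 were separated between the groups, as were Mrpl28 (1.64), Mrps12 (1.51) and Mrps6 (1.2). Mrps6 shares 159 exon bases with Slc5a3 on the same strand, which leaves its count uncertain. Downward, Mrpl32 was at 54.8, 55.3 and 49.99 and 6.41, 8.45 and 7.57 CPM (−2.83 ± 0.11, edgeR adjusted p = 9.4e-17). Mrpl1 was at 34.5, 36.3 and 35.2 and 6.30, 7.11 and 7.49 CPM (−2.34 ± 0.11), and Mrps22 at 26.9, 27.6 and 24.7 and 4.77, 6.76 and 6.60 CPM (−2.13 ± 0.12). Mrpl44 (−2.19), Mrps2 (−2.01) and Mrpl50 (−1.98) completed the 6 largest falls, and in none of these 6 genes did the groups overlap.

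The doxorubicin comparisons share no library, so their calls can be set against each other. Of the 49 members lower in Dox, 38 (77.6%) were also lower after the Hif1a siRNA, and these were 97.4% of the 39 lower there. Of the 16 higher in Dox, 14 (87.5%) were also higher after the siRNA, 58.3% of the 24 higher there. Over the 78 genes the log2 fold changes had a Spearman rho of 0.86, as a description across genes that share libraries within each comparison. Of all tested genes 39.8% were lower and 43.9% higher in Dox, and 41.6% and 42.6% after the siRNA. The overlap and rho over all tested genes were not worked out, so these values do not set the members apart. Called in opposite directions were 4 members, each lower in Dox and higher after the siRNA: Mrpl18 (−1.73 and 0.20), Mrpl45 (−0.82 and 0.69), Mrpl53 (−0.59 and 0.25) and Mrps33 (−0.17 and 0.31). Both calls held in Mrpl45 whichever library was left out. The rise of Mrpl18 after the siRNA (edgeR adjusted p = 0.044) overlapped between the groups. It did not pass in a fit of these 2 groups alone (0.13), nor without any 1 of the 3 Hif1a_siRNA libraries or replicate 1 or 2 of Hif1a_siRNA_Dox (adjusted p 0.085 to 0.42). The rise of Mrpl53 was lost without the same 5 libraries, each in turn (0.061 to 0.21). The fall of Mrps33 in Dox was lost without replicate 1 or 2 of Control or of Dox (edgeR adjusted p 0.062 to 0.14) and with upper-quartile scaling (0.59).

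**Figure D4:**
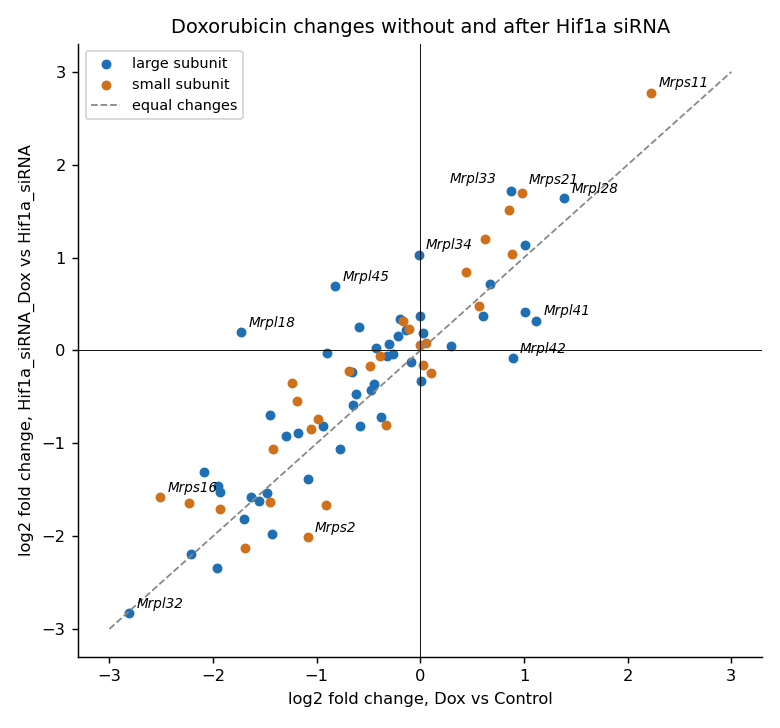
Log2 fold change of each of the 78 genes with doxorubicin in cells without siRNA (horizontal axis) and after the Hif1a siRNA (vertical axis), with large subunit genes in blue and small subunit genes in orange. The dashed line marks equal changes; Mrpl18, Mrpl45 and Mrpl34 lie above it and Mrpl42 and Mrps2 below.

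The difference of the doxorubicin effects, the change after the Hif1a siRNA minus the change without it, was tested in the same fit. Cells without the Hif1a siRNA had no siRNA at all here, so transfection and loss of Hif1a cannot be told apart in this difference. For the group names, it is Hif1a_siRNA_Dox against Hif1a_siRNA minus Dox against Control. For 34 members the difference was positive, for 10 negative and for 34 it did not pass, with a median of 0.21. Of all tested genes 26.3% had a positive and 32.3% a negative difference, with a median of −0.06. The largest was that of Mrpl18 (1.93 ± 0.12 SE, edgeR adjusted p = 1.1e-11), which was at 24.6, 24.8 and 23.5 CPM in Dox and 23.5, 23.3 and 19.5 in Hif1a_siRNA_Dox. With 20.7, 17.8 and 19.4 CPM in Hif1a_siRNA, it was therefore low in all 9 libraries given the Hif1a siRNA, doxorubicin or both. Mrpl45 was at 103, 103 and 113 CPM in Dox and 92.3, 109.5 and 88.9 in Hif1a_siRNA_Dox, above its level in Hif1a_siRNA (1.51 ± 0.12, edgeR adjusted p = 3.6e-10). Mrpl34 was at 9.76, 9.10 and 9.65 CPM in Hif1a_siRNA, 17.7, 20.8 and 19.4 in Dox and 18.8, 19.98 and 19.4 in Hif1a_siRNA_Dox (1.05 ± 0.16). Both groups given doxorubicin thus overlapped with Control in Mrpl34, while both groups given an siRNA without the drug were lower. Mrps16 had a difference of 0.93 ± 0.24. On the negative side were Mrpl42 (−0.97 ± 0.12), Mrps2 (−0.92 ± 0.14), Mrpl41 (−0.79 ± 0.19) and Mrps18b (−0.76 ± 0.17).

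Hif1a_siRNA_Dox against Dox addressed what the Hif1a siRNA added under the drug. Dox cells had no siRNA, so transfection and loss of Hif1a cannot be told apart in it. Most members, 50 of 78, did not pass; 21 were lower and 7 higher, with a median of −0.09. Of all tested genes 20.8% were lower and 21.5% higher, with a median of 0.01. Large subunit genes were lower in 13 and higher in 2 of 49, and small subunit genes lower in 8 and higher in 5 of 29. The count of 7 higher was 4 without replicate 2 of Hif1a_siRNA_Dox and 3 in a fit of these 2 groups alone. The median of the members was −0.045 with RLE scaling.

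Mrpl42, a large subunit protein specific to mitochondria, made the only change of at least 2-fold (2.54% of all tested genes were that much lower and 0.739% higher). It was at 91.2, 80.02 and 92.8 CPM in Dox and 34.4, 32.8 and 35.5 in Hif1a_siRNA_Dox (−1.36 ± 0.09 SE, edgeR adjusted p = 2.6e-11). Its levels of 50.8, 43.4 and 48.1 CPM in Control, 27.02, 27.4 and 31.1 in NC_siRNA and 38.1, 34.2 and 36.4 in Hif1a_siRNA put all 3 Dox libraries above the other 12. Mrps22 was at 10.5, 9.78 and 9.22 and 4.77, 6.76 and 6.60 CPM (−0.70 ± 0.13), Mrpl20 at 44.1, 44.2 and 43.9 and 22.1, 31.1 and 31.9 CPM (−0.64 ± 0.10) and Mrpl43 at 21.1, 16.9 and 20.2 and 9.47, 15.8 and 14.2 CPM (−0.56 ± 0.13). Mrps36, known also as a part of the oxoglutarate dehydrogenase complex, fell by 0.56 and Mrps18a by 0.48. None of these overlapped between the groups. Increases were led by Mrpl44, at 5.04, 3.65 and 4.43 and 7.23, 6.17 and 6.11 CPM (0.57 ± 0.14, edgeR adjusted p = 0.0018), and Mrps9, at 40.8, 43.6 and 37.96 and 54.2, 55.8 and 51.8 CPM (0.40 ± 0.07, edgeR adjusted p = 0.00015). Mrps17 (0.38) and Mrps10 (0.33) followed. In a fit of these 2 groups alone Mrps17 did not pass (edgeR adjusted p = 0.068), nor did Mrps26, Mrpl24 and Mrps18b (0.093 to 0.12). Mrps26 (0.30) and Mrpl24 (0.21) lost the call without replicate 2 of Hif1a_siRNA_Dox (edgeR adjusted p = 0.12 for each) and without 1 of the Dox libraries (replicate 3 for Mrps26, 0.071, and replicate 1 for Mrpl24, 0.11). Mrps18b (0.34 ± 0.13) overlapped between the groups and lost its call when any 1 of 5 of the 6 libraries was left out (edgeR adjusted p 0.056 to 0.28).

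The stalk of the large subunit, where translation factors dock, is built from Mrpl10, Mrpl11 and Mrpl12. Mrpl10 was at 48.4, 41.4 and 38.1 CPM in Control, 32.95, 33.9 and 33.5 in NC_siRNA, 42.8, 43.3 and 43.2 in Hif1a_siRNA, 40.5, 40.3 and 47.3 in Dox and 36.8, 32.4 and 33.8 in Hif1a_siRNA_Dox. Mrpl11 was at 22.8, 21.6 and 20.8 CPM, 22.8, 21.9 and 18.6 CPM, 18.5, 13.3 and 15.9 CPM, 9.98, 8.61 and 7.89 CPM and 9.15, 7.24 and 8.79 CPM in the same order. Mrpl12 was at 56.6, 46.5 and 48.8 CPM, 35.1, 35.4 and 37.4 CPM, 64.5, 58.8 and 61.6 CPM, 35.99, 41.2 and 39.03 CPM and 30.4, 44.7 and 37.3 CPM. With doxorubicin Mrpl11 fell (−1.30 ± 0.14), Mrpl12 fell (−0.39 ± 0.11) and Mrpl10 did not pass (0.00 ± 0.09). With the Hif1a siRNA Mrpl12 rose (0.78 ± 0.11) and Mrpl10 rose (0.37 ± 0.09), while Mrpl11 was called lower (−0.41 ± 0.13), a call lost without replicate 2 of Hif1a_siRNA (edgeR adjusted p = 0.061). Under doxorubicin Mrpl10 was lower with the siRNA than without (−0.32 ± 0.09), a call lost without replicate 3 of Dox (edgeR adjusted p = 0.063).

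Mrpl58, a peptidyl-tRNA hydrolase built into the large subunit, was at 55.2, 50.8 and 48.4 CPM in Control, 36.6, 34.8 and 36.3 in NC_siRNA, 35.1, 34.5 and 34.6 in Hif1a_siRNA, 14.01, 13.9 and 11.9 in Dox and 12.1, 13.5 and 12.1 in Hif1a_siRNA_Dox. It fell with doxorubicin without (−1.95 ± 0.09) and after the Hif1a siRNA (−1.46 ± 0.09), and less in the second case (difference 0.49 ± 0.13, edgeR adjusted p = 0.0021). Mrps12, at the decoding site of the small subunit, was among the genes that rose. It was at 16.6, 13.1 and 11.9 CPM in Control, 9.64, 12.02 and 9.48 in NC_siRNA, 7.06, 7.86 and 9.02 in Hif1a_siRNA, 24.8, 23.8 and 26.6 in Dox and 25.02, 23.8 and 19.3 in Hif1a_siRNA_Dox, with rises of 0.85 ± 0.14 and 1.51 ± 0.14 with the drug. Its calls as lower with the negative control siRNA (−0.42 ± 0.14) and with the Hif1a siRNA (−0.38 ± 0.14) were each lost when any 1 of 3 libraries was left out: replicate 1 of Control or 1 or 3 of NC_siRNA for the first, and replicate 2 of NC_siRNA or 1 or 2 of Hif1a_siRNA for the second (edgeR adjusted p 0.053 to 0.14).

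The 3 relatives of one bacterial protein, Mrps18a, Mrps18b and Mrps18c, occupy different places in the mitochondrial ribosome, and Mrps18a, like Mrps30, has been found in the large subunit despite its name. Mrps18a was at 36.6, 31.9 and 29.04 CPM in Control, 21.4, 24.3 and 22.2 in NC_siRNA, 31.3, 33.5 and 31.6 in Hif1a_siRNA, 24.5, 24.1 and 28.8 in Dox and 15.8, 21.4 and 17.96 in Hif1a_siRNA_Dox. Mrps18c was at 22.2, 20.8 and 21.6 CPM, 17.1, 14.8 and 15.5 CPM, 22.01, 20.97 and 20.7 CPM, 21.4, 21.1 and 23.1 CPM and 16.7, 19.6 and 20.8 CPM in the same order. With doxorubicin after the siRNA, Mrps18b fell by 1.66, Mrps18a fell by 0.80 and Mrps18c did not pass (−0.16). Without the siRNA the drug's changes were −0.91 for Mrps18b, −0.33 for Mrps18a and 0.02 for Mrps18c, which did not pass. The Mrps18a call was lost without replicate 1 of Control (edgeR adjusted p = 0.064) and with upper-quartile scaling (0.09). All 3 rose with the Hif1a siRNA, by 1.32, 0.50 and 0.43. Mrps30 was at 44.6, 48.5 and 46.6 CPM in Control, 14.6, 17.5 and 18.8 in Dox, 50.96, 49.6 and 48.1 in Hif1a_siRNA and 14.1, 18.97 and 14.6 in Hif1a_siRNA_Dox, with falls of −1.46 ± 0.11 and −1.64 ± 0.10 with the drug. It rose from 36.4, 37.5 and 36.4 CPM in NC_siRNA with the Hif1a siRNA (0.43 ± 0.10).

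Some mitoribosomal proteins carry other names. Of Dap3, Ptcd3, Gadd45gip1, Aurkaip1 and Chchd1, 4 were lower with the negative control siRNA, and with doxorubicin 3 were lower and Ptcd3 higher. Gadd45gip1, a large subunit protein, was at 72.97, 71.6 and 63.9 CPM in Control and 19.97, 17.5 and 17.4 in Dox (−1.93 ± 0.09), and Ptcd3, of the small subunit, at 39.9, 35.9 and 40.5 and 61.4, 54.2 and 52.9 CPM (0.53 ± 0.08). With the Hif1a siRNA Ptcd3 rose from 33.3, 36.5 and 32.7 to 76.9, 76.5 and 77.6 CPM (1.17 ± 0.08). Of 24 assembly and rRNA modification factors, 11 were higher and 12 lower with doxorubicin (all tested genes 43.9% and 39.8%). The GTPase gene Noa1 (2.80 ± 0.10) and the methyltransferase gene Mrm2 (2.59 ± 0.33) rose most, and Mterf4 (−1.81 ± 0.16) and the rRNA dimethylase gene Tfb1m (−1.79 ± 0.12) fell most. Mrm2 had few reads, at 0.57, 0.49 and 0.48 CPM in Control and 3.24, 3.40 and 2.66 in Dox. With the Hif1a siRNA 13 of the 24 were higher and 2 lower (all tested genes 36.4% and 31.2%), led by Mrm3 (2.13 ± 0.23) and Fastkd2 (2.08 ± 0.13). Mrm3 was low too, at 1.91, 1.39 and 1.12 CPM in NC_siRNA and 5.29, 6.59 and 7.52 in Hif1a_siRNA. Among 17 mitochondrial translation factors, 10 were lower and 5 higher with doxorubicin, against the same shares, with Oxa1l, the insertase of the inner membrane, at −2.04 ± 0.13, the recycling factor Mrrf at −1.94 ± 0.11 and the release factor Mtrf1l at 2.92 ± 0.14. With the Hif1a siRNA 9 of them were higher and none lower.

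Reads of the rRNAs that these proteins bind rose under the drug. The libraries came from an mRNA kit, so a change in capture and a change in amount cannot be told apart. In Control mt-Rnr1 was at 459, 467 and 461 CPM and in Dox at 4866, 5273 and 5047, and mt-Rnr2 was at 141, 134 and 150.5 and 1998, 2390 and 2276 CPM. All 13 mitochondrial mRNAs rose with doxorubicin without (median 1.22) and after the Hif1a siRNA (median 1.76). Of 82 cytosolic ribosomal protein genes, 53 were higher and 7 lower with doxorubicin (median 0.33), and 74 were higher and 1 lower after the Hif1a siRNA (median 0.74). Of 80 nuclear genes of the respiratory chain and ATP synthase, 50 were higher and 18 lower in Dox (median 0.40), and 58 higher and 8 lower after the siRNA (median 0.79). The mitochondrial ribosomal genes, with 49 and 39 of 78 lower, had medians below 0 in both. With the negative control siRNA all 82 cytosolic genes were lower (median −0.88), as were 78 of the 80 respiratory genes (−0.67), beside the 64 of 78 above. In Hif1a_siRNA_Dox against Dox 72 of the 82 and 71 of the 80 were lower and none higher, beside 21 of the 78. With the Hif1a siRNA alone 24 of the 82 were higher and 9 lower, and 20 of the 80 higher and 37 lower. The shares of all tested genes higher and lower were 43.9% and 39.8% in Dox, and 42.6% and 41.6% after the siRNA. They were 33.1% and 33.7% with the negative control siRNA, and 21.5% and 20.8% in Hif1a_siRNA_Dox against Dox. With the Hif1a siRNA alone they were 36.4% and 31.2%. No test across these lists was made.

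**Figure D5:**
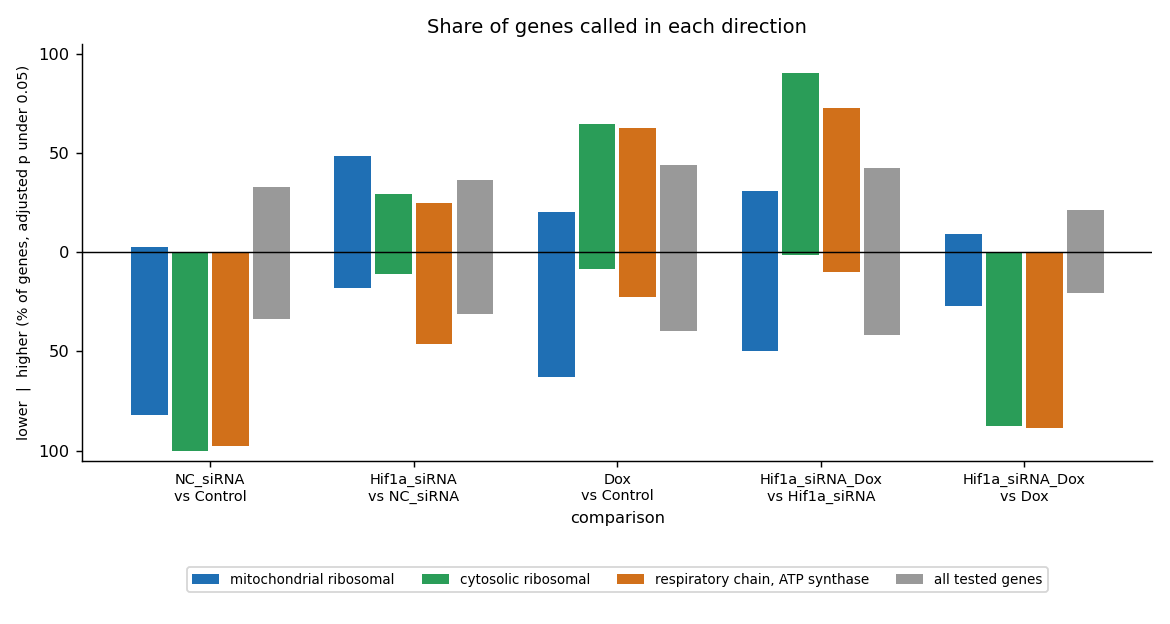
Share of genes called higher (upward bars) and lower (downward bars) at an edgeR adjusted p under 0.05, in percent, for the 78 mitochondrial ribosomal, 82 cytosolic ribosomal and 80 respiratory chain and ATP synthase genes and for all 12721 tested genes, in each comparison. With doxorubicin 62.8% of the mitochondrial ribosomal genes are lower, while most genes of the other two lists are higher.

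Several features that played no part in the choice of members were set beside their changes. Across the 78 genes, the change with doxorubicin had a Spearman rho of −0.45 with merged exon length in cells without siRNA. After the siRNA it was −0.47, members with longer merged exons being lower. With genomic span rho was 0.16 and 0.06, and with the Control level −0.14 and 0.10. Exon lengths ran from 478 to 7605 bases and spans from 0.825 to 122 kb. The exon lengths merge all annotated coding transcripts of a gene, and the spans come from another annotation. In some members the exon length exceeds the span, as in Mrps26 (4278 bases and 1.638 kb). It is therefore not the length of the transcript that was counted. These are descriptions over genes measured in the same libraries. The 8 members with the NRF1 letters had a median change of −0.93 with doxorubicin, 6 being lower and 1 higher, and the other 61 with a window −0.47. After the siRNA the medians were −1.06 and −0.16. For the 24 members with the ETS letters and the 45 without, the medians were −0.54 and −0.47 in Dox. Members with the YY1 letters had a median of −0.22 over 12 (4 higher, 6 lower), and the other 57 one of −0.62 (11 higher, 37 lower). Those 12 include the largest rise and the largest fall, Mrps11 (2.23) and Mrpl32 (−2.81). With the HIF-1 core the median was −0.90 over 15, and without it −0.44 over 54. For the Sp1 box the medians were −0.68 over 34 and −0.39 over 35, and for CACGTG −0.21 over 5 and −0.60 over 64. None of these differences was tested. Of the genes whose stretches are printed above, Mrpl10 and Mrpl34 did not pass with doxorubicin (0.00 and −0.02 ± 0.11), while Mrps22 (−1.70 ± 0.12) and Mrpl17 (−0.94 ± 0.10) fell. Exon bases are shared with another annotated gene in 33 of the 78 members and with a protein-coding gene in 23, of which 4 on the same strand. Among genes named above these include, beside those already given, Mrps24 with 226 bases of Urgcp on the same strand, and on the other strand Mrpl13 with 330 bases of Mtbp, Mrpl43 with 507 of Twnk and Mrpl24 with 594 of Rrnad1. Mrps18b shares 638 bases with the antisense gene Gm16279, and Mrpl33 shares 261 with Gm43809 on its own strand.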

How the data were processed

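RNA-seq counts of B16.F10 libraries were analysed. The authors deposited raw read counts per gene, with no normalization. Per the submitters' processing notes, the authors' tools included StringTie 2.1.3b, Bowtie2 2.3.4.1 and HISAT2 2.1.0, beside Trimmomatic 0.38 and FastQC 0.11.7, and the build was mm10. Per the labels' protocols, RNA came from RNeasy kits and libraries from a TruSeq Stranded mRNA kit. The strand setting of the counting is not given in the sources used here. The 12721 gene IDs listed for all 5 groups were fitted together in edgeR 4.0.16 (R 4.3.3) with TMM scaling, a group term, robust quasi-likelihood dispersions and two-sided F tests on 10 residual degrees of freedom. Each SE of an edgeR change is the size of the log2 fold change divided by the square root of its F. The filter (at least 10 reads, total of 15) removed 0 genes. Within each of 6 comparisons p-values were adjusted over all 12721 genes by the Benjamini-Hochberg method, with a threshold of 0.05. The common biological coefficient of variation was 0.0907, and totals of 23825110 to 28734303 reads limit the precision of low counts.

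The members and lists were chosen with earlier results of these data known. Named in each comparison of group pairs are the 6 largest rises and falls among called members whose libraries do not overlap between the groups. For the difference of doxorubicin effects they are the 4 largest each way. Some members were named for their role, whatever their values, as were the 3 highest per kilobase in each subunit. Of the other lists up to 2 genes a direction were named. Exon lengths and overlaps came from GENCODE, promoter windows from RefSeq (GRCm38.p6). The procedure was also run on simulated data in which few genes changed, far fewer than were called here. Such a run cannot test the scaling where many genes change. Each library was left out in turn. Other alternatives were a replicate block, a fit of the compared groups alone, scaling by RLE or by upper quartiles, DESeq2 1.42.0, a threshold of 0.01, and either no low-count filter or one that asked for 1 CPM in at least 3 libraries. A fit of nuclear protein-coding genes was added after seeing the data.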

Additional observations from a re-analysis of the deposited data

Results flagged for a closer look

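In 44 of the 78 members the change with doxorubicin differed between cells without and after the Hif1a siRNA, by the test of the difference itself (change after the siRNA minus change without it, edgeR adjusted p under 0.05). The background is wide, since 26.3% of all tested genes had a positive and 32.3% a negative difference. Cells without the Hif1a siRNA were not transfected, so transfection and loss of Hif1a cannot be told apart in these differences. Given here are 12 of the 44 members, those that had the largest differences or were named for their role. The difference was positive for Mrpl18 (1.93), Mrpl45 (1.51), Mrpl34 (1.05), Mrps16 (0.93), Mrps12 (0.65) and Mrpl58 (0.49). It was negative for Mrpl42 (−0.97), Mrps2 (−0.92), Mrpl41 (−0.79), Mrps18b (−0.76), Mrps18a (−0.47) and Mrpl10 (−0.33). In Mrpl45 the change itself passed in opposite directions in the 2 settings. In Mrpl42 the rise with doxorubicin, 0.89 ± 0.09 SE without the siRNA, was −0.08 ± 0.09 after it and did not pass. The Mrpl10 difference (edgeR adjusted p = 0.031) was lost without replicate 2 or 3 of Control, replicate 3 of Dox or replicate 2 of Hif1a_siRNA_Dox (adjusted p 0.051 to 0.1), and also with RLE scaling (0.1) or DESeq2 (0.096).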

How the results depend on the processing

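Among values of single named genes, none that passed the test did so in the other direction under an alternative, while 6 that did not pass took either sign. Of these single-gene values 1907 stayed on their side of the threshold, 73 lost the call and 12 gained it. Among counts of members called, 179 stayed within 1.5 times the main count and 13 did not. The 7 members higher in Hif1a_siRNA_Dox than in Dox became 4 at an adjusted p under 0.01, 3 with the compared groups alone and 4 without replicate 2 of Hif1a_siRNA_Dox. The 2 members higher with the negative control siRNA became 1 with upper-quartile factors, an adjusted p under 0.01, the 1 CPM filter or nuclear protein-coding genes alone. The 10 members with a negative difference of doxorubicin effects became 6 at an adjusted p under 0.01. Leaving out each library in turn gave 1 to 2 members higher and 60 to 63 lower with the negative control siRNA, 37 to 39 and 12 to 14 with the Hif1a siRNA, 15 to 16 and 47 to 50 with doxorubicin, 16 to 21 and 39 to 42 with doxorubicin after the siRNA, and 4 to 8 and 18 to 26 in Hif1a_siRNA_Dox against Dox. For the difference it gave 27 to 33 positive and 7 to 12 negative. Some counts of the full fit lie above these ranges: 24 higher with doxorubicin after the siRNA, 34 positive differences and 64 lower with the negative control siRNA. The cause was not tested. Upper-quartile factors moved the median of all genes by 0.13 with doxorubicin and 0.15 with doxorubicin after the siRNA, and under no scaling did a called member change sign. The filter removed 0 genes, so a fit without it is the same fit.

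Replicate numbers in the labels gave no sign of a pairing. Same-numbered libraries of different groups had correlations of −0.16 to 0.09 (median 0.003) in their deviations from the group means. Other-numbered libraries had −0.17 to 0.14 (median 0.004). Deviations from means of 3 libraries cannot exclude shared cultures or batches. With a replicate block, the only count of members to move by over 1.5 times was that higher with the negative control siRNA, from 2 to 1.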

Other observations

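Factors known for driving transcription of nuclear genes for mitochondria were measured beside the members. Of 10 such genes, 4 were higher and 5 lower with doxorubicin, and 7 were higher and 1 lower with the Hif1a siRNA, against 43.9% and 39.8% and 36.4% and 31.2% of all tested genes. Ppargc1a, the coactivator PGC-1alpha, was at 51.5, 47.9 and 44.3 CPM in Control and 7.18, 6.93 and 9.80 in Dox (−2.59 ± 0.12 SE, edgeR adjusted p = 7.1e-16). It was at 85.03, 97.2 and 91.4 CPM in Hif1a_siRNA and 6.05, 6.11 and 6.64 in Hif1a_siRNA_Dox (−3.87 ± 0.12), so its libraries did not overlap in either comparison. Its relative Pprc1 was at 3.84, 4.63 and 4.33 CPM in Control, 11.3, 13.7 and 12.1 in NC_siRNA, 51.1, 54.6 and 53.8 in Hif1a_siRNA, 21.9, 22.04 and 20.9 in Dox and 27.3, 24.9 and 25.4 in Hif1a_siRNA_Dox. Pprc1 rose with doxorubicin without the siRNA (2.34 ± 0.11) and fell with it after the siRNA (−1.04 ± 0.09). Nrf1 itself was at 39.1, 35.2 and 37.4 CPM in Control and 28.1, 26.03 and 24.8 in Dox (−0.50 ± 0.09). Myc, which drives many genes of growth, was at 20.4, 22.1 and 20.9 CPM in Dox and 53.4, 41.3 and 43.97 in Hif1a_siRNA_Dox (1.13 ± 0.10, edgeR adjusted p = 1.3e-08).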
